A study of Homo sapiens with 6 samples.

Results

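The 35 genes described here encode drivers and markers of the mesenchymal state, proteins of the extracellular matrix, and integrins, the receptors that bind matrix. They were listed by name, and all 35 were found among the 20660 gene names of the authors' deposited table. RNA sequencing compared FaDu cells, a widely used line grown from a hypopharyngeal squamous tumour, treated with BB608 or with its vehicle DMSO. The question was how BB608, a compound known here only by its code name, changes gene expression in a cell line of head and neck cancer. Each group had 3 biological replicates, no genetic change is named for either group, and the sources used here give neither dose nor treatment time. The table gives 1 pooled FPKM (fragments counted per length of sequence and per size of the library) per group for each coding sequence, so values per library and sequencing depth are unknown, and no spread between replicates could be computed.

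In epithelial-mesenchymal transition, epithelial cells loosen their junctions and take on a migratory, matrix-producing state. Transcription factors of the SNAIL, ZEB and TWIST families repress epithelial genes such as CDH1, which encodes E-cadherin. Carcinomas often take on only part of this programme. Epithelial cells rest on a basement membrane of laminin, type IV collagen and proteoglycans, while fibroblasts make most of the fibrillar collagen around it. Integrins are pairs of an alpha and a beta subunit that anchor the cell to these proteins and signal from them.

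With BB608, SNAI1 fell, and it was the only member with a call in the authors' deposited table. Its level went from 5.20 FPKM with DMSO to 3.11 FPKM with BB608. Gene sums, the FPKM values added over a gene's coding sequences, were higher in BB608 for all 9 basement membrane members and lower for 5 of the 6 integrin members, none with a call, against 57.5% higher and 42.5% lower among all expressed genes. These 2 groups of members were drawn after the values were known. By the most abundant coding sequence in place of the gene sum, 7 of the 9 were higher. Lists of other genes of related kinds did not show these counts, with 2 of 8 laminin and basement membrane genes higher and 3 of 7 integrin genes lower. The first of these lists holds no collagen gene, unlike the 9 members. HSPG2 among the 9 members, and NID1 and ITGA7 in these lists, counted as expressed through their BB608 value alone. VIM, SPARC, COL3A1 and POSTN, all textbook mesenchymal or fibroblast genes, were at or near 0 in both groups. Yet 25 of the 35 members were expressed, among them CDH2 at 8.42 FPKM, SNAI2 at 19.7 FPKM and THBS1 at 29.8 FPKM with DMSO. A fall in bulk RNA can come from fewer cells expressing a gene or from less RNA per cell, and these cannot be told apart.

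The 35 genes have 188 coding sequences in the authors' deposited table, of which Cuffdiff tested 72, from 24 genes. A coding sequence was called where its q was under 0.05. Among tested genes of the whole table, 1.06% had a called coding sequence and 0.63% had a called one that was lower in BB608. With 1 of 24 tested members called, the share among members is set by a single gene. Of all tested coding sequences 0.354% were called, against 1 of the members' 72. An unadjusted p under 0.05 was listed for 6 of the 72, against 3.31% of all tested coding sequences. These 6 belong to SNAI1, SNAI2, FN1, LAMA5, AGRN and ITGA3, or 6 of 24 tested members against 9.49% of all tested genes. Of the 6, 3 were lower and 3 higher in BB608.

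FPKM values of all coding sequences of a gene were added to give a gene sum, a level per length of sequence. A gene was counted as expressed when its gene sum was at least 1 FPKM in the higher group, which held for 25 of the 35 members and for 10973 of all genes. Just inside this limit were TWIST2, at 1.00 FPKM in BB608, and HSPG2, at 1.12 FPKM in BB608, and both passed through BB608 alone. TNC, at 0.902 FPKM in DMSO, and COL1A1, at 0.690 FPKM in BB608, lay just outside. Of the 25 expressed members 10 were lower and 15 higher in BB608, so 40.0% were lower, against 42.5% of all expressed genes. Their median log2 fold of the gene sum was 0.07, against 0.03 over all expressed genes. The median size of the log2 fold, sign ignored, was 0.18 for the members and 0.14 for all expressed genes. The members' median and share of lower genes thus lay close to those of the whole table, while their share at an unadjusted p under 0.05 was above it. The members were chosen with earlier results of these data known, so that share is only a description and was not tested.

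**Figure D1:**
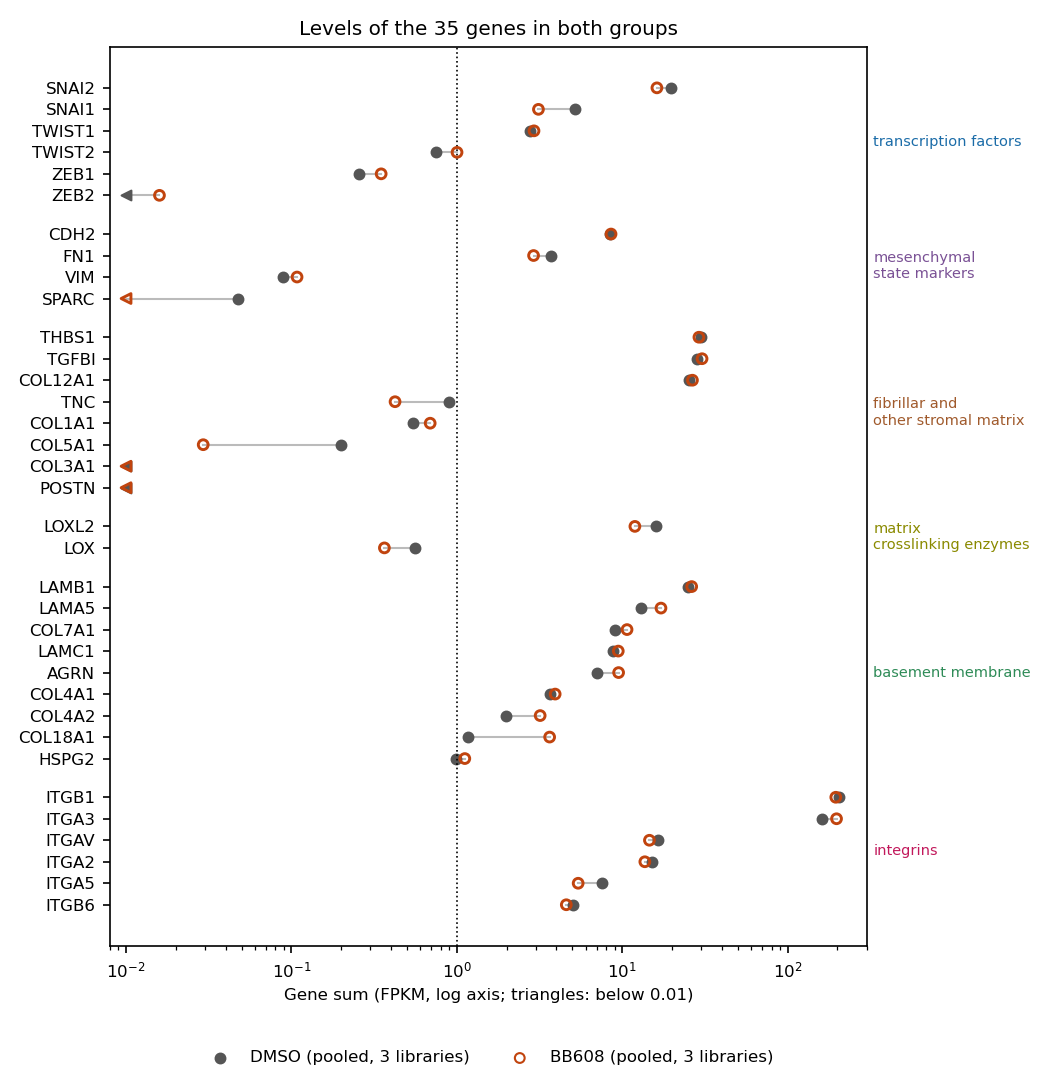
Gene sums of the 35 genes in FPKM on a log axis, grouped by role, with filled points for the pooled DMSO value, open points for the pooled BB608 value, triangles for values below 0.01 FPKM and a dotted line at 1 FPKM. ITGB1 and ITGA3 stand at the top in both groups, and 10 genes lie below 1 FPKM in both.

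The cells' identity was checked first. All 10 squamous epithelial markers were expressed, with KRT5, a basal keratin, at 2334 FPKM with DMSO and 2472 FPKM with BB608. Summed over the 10 markers, the level was 3664 FPKM with DMSO and 3821 FPKM with BB608. Of 10 fibroblast markers 3 were expressed, namely PDPN, MMP2 and ACTA2, with a list sum of 13.9 FPKM with DMSO and 13.7 FPKM with BB608. The collagen gene COL1A2 and the fibroblast markers PDGFRA, PDGFRB, LUM, THY1 and FAP were at or below 0.111 FPKM in both groups, and DCN at or below 0.44 FPKM. Of 9 listed endothelial and blood markers only CDH5 and CD14 were expressed, with list sums of 6.29 and 6.43 FPKM in DMSO and BB608. No marker of the 3 lists had a call by Cuffdiff's q, and none had a coding sequence at an unadjusted p under 0.05.

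Among the 6 transcription factors 4 were expressed, 1 fell and no other was called. SNAI1 encodes SNAIL, a zinc finger repressor of epithelial genes with a short-lived messenger and protein. It has 1 coding sequence in the table, at a locus given there as 48599535 to 48605423 on chromosome 20 of hg19. Its level of 5.20 FPKM with DMSO and 3.11 FPKM with BB608 gave a log2 fold of -0.74 with p = 0.0001 and q = 0.0290 in the authors' deposited table. Cuffdiff deposits no error, so an SE was derived from its statistic and p, called the implied SE here, and an approximate 95% interval from it. For SNAI1 the implied SE was 0.19 and the interval ran from -1.11 to -0.37. Genes with 1 tested coding sequence, as here, were called more often than others, at 2.28% over the whole table. With 1 FPKM added to both values the log2 fold of SNAI1 was -0.59.

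SNAI2 encodes SLUG, the close relative of SNAIL that is common in basal epithelial cells. It was the most abundant of the 6 factors, at 19.7 FPKM with DMSO and 16.2 FPKM with BB608. Its log2 fold was -0.28 (implied SE 0.10), with p = 0.00635 and q = 0.715 in the authors' deposited table, so it was lower in BB608 without a call. Its interval, -0.48 to -0.08, lies within 0.5 log2 of no change. Whether the folds of SNAI1 and SNAI2 differ was not tested.

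TWIST1 and TWIST2 encode basic helix-loop-helix factors of the mesoderm. TWIST1 had a gene sum of 2.76 FPKM with DMSO and 2.93 FPKM with BB608. Its 1 tested coding sequence had a log2 fold of -0.14 (interval -0.49 to 0.21) against 0.09 for the gene sum, so its direction depends on the coding sequences counted. TWIST2 was at 0.746 FPKM with DMSO and 1.00 FPKM with BB608, with an interval from -0.28 to 1.14 that holds no change as well as a difference of 1 log2. ZEB1 and ZEB2, zinc finger repressors that help to keep cells mesenchymal, were not expressed. ZEB1 was at 0.256 FPKM with DMSO and 0.349 FPKM with BB608, and ZEB2 was at 0.0159 FPKM or less in both groups. Neither ZEB gene had a tested coding sequence.

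Of 4 markers of the mesenchymal state CDH2 and FN1 were expressed, VIM and SPARC were not, and none was called. CDH2, which encodes N-cadherin, was at 8.42 FPKM with DMSO and 8.55 FPKM with BB608. Its most abundant tested coding sequence had a log2 fold of 0.12 (interval -0.43 to 0.67) in BB608. CDH1 was the more abundant cadherin gene of the pair CDH1 and CDH2, with gene sums 2.45 times those of CDH2 in DMSO and 2.58 times in BB608. FN1 encodes fibronectin, a large adhesive protein of provisional matrix. It had gene sums of 3.72 FPKM with DMSO and 2.91 FPKM with BB608. The largest fall was in a minor coding sequence, at 0.581 FPKM with DMSO and near 0 in BB608, with a Cuffdiff p of 0.101. Another was higher in BB608, at 0.349 FPKM with DMSO and 0.616 FPKM with BB608, with a Cuffdiff p of 0.205. FN1 had only 30.0% of its DMSO gene sum in the most abundant coding sequence, so that sequence does not account for the lower sum alone. Its most abundant tested coding sequence had a log2 fold of -0.54 (implied SE 0.27), with p = 0.0442 and q = 0.997 in the authors' deposited table.

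VIM, which encodes the intermediate filament protein of mesenchymal cells, was at 0.0887 FPKM with DMSO and 0.108 FPKM with BB608. SPARC, a collagen-binding matrix protein gene, was at 0.0477 FPKM in DMSO and near 0 in BB608. These values lie far under the limit for an expressed gene, and no coding sequence of either was tested. N-cadherin, SLUG and TWIST1 messengers were thus present in a line with almost no vimentin messenger, in DMSO as in BB608.

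**Figure D2:**
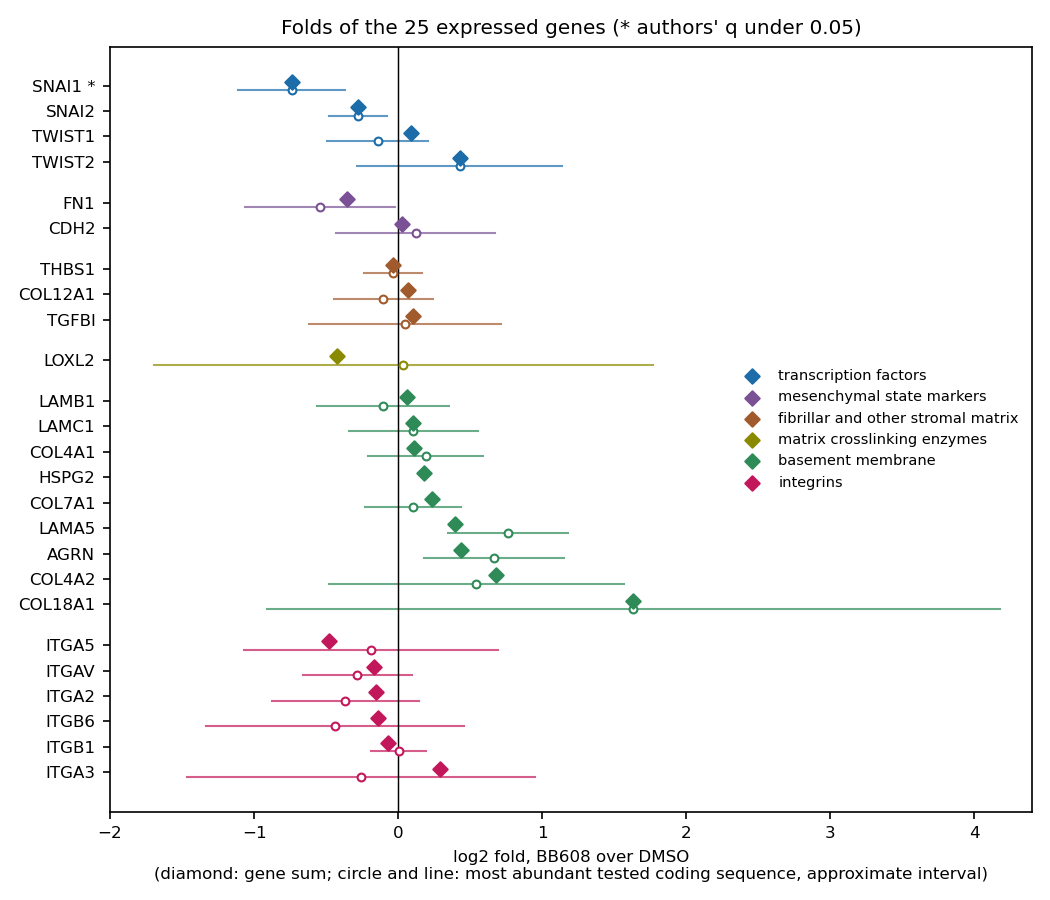
The log2 fold of BB608 over DMSO for the 25 expressed genes by role, with diamonds for the gene sum and circles with lines for the most abundant tested coding sequence and its approximate 95% interval (HSPG2 had none). SNAI1, marked with an asterisk, is the only call; the basement membrane diamonds all lie right of 0, most of their intervals cross 0, and the interval of COL18A1 is the widest.

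Of 8 genes for fibrillar and other stromal matrix 3 were expressed, at similar levels in both groups. THBS1 encodes thrombospondin-1, which binds matrix and helps to activate TGF-beta. It was at 29.8 FPKM with DMSO and 29.1 FPKM with BB608, and its 1 tested coding sequence had an interval from -0.24 to 0.17 log2. This is among the most precise values of the whole set, and a change of 0.5 log2 lies outside it. TGFBI, which encodes a secreted adhesion protein induced by TGF-beta, had gene sums of 28.3 FPKM with DMSO and 30.4 FPKM with BB608. COL12A1, the gene of a collagen that sits on the surface of fibrils, had gene sums of 25.3 FPKM with DMSO and 26.6 FPKM with BB608. Its log2 fold was 0.07 by gene sum and -0.10 (interval -0.45 to 0.24) by the most abundant coding sequence, so it has no settled direction.

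The other 5 genes of this kind were not expressed. TNC encodes tenascin-C, a matrix protein of wounds and tumours, and was at 0.902 FPKM with DMSO and 0.423 FPKM with BB608. COL1A1, the gene of the main chain of type I collagen, was at 0.541 FPKM with DMSO and 0.690 FPKM with BB608. COL5A1, whose product nucleates collagen fibrils, was at 0.198 FPKM with DMSO and 0.0293 FPKM with BB608. COL3A1 was at 7.44e-07 FPKM in BB608 and listed at 0 in DMSO, and POSTN, the periostin gene, was listed at 0 in both groups. None of the 5 had a tested coding sequence, so nothing can be said of a change in them. Messenger of type I, III and V collagen was thus scarce, while COL12A1, TGFBI and THBS1 were above 25 FPKM.

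LOX and LOXL2 encode secreted copper enzymes that crosslink collagen and elastin. LOX was not expressed, at 0.556 FPKM with DMSO and 0.365 FPKM with BB608. LOXL2 had gene sums of 16.0 FPKM with DMSO and 11.9 FPKM with BB608, a log2 fold of -0.42. Its most abundant coding sequence was at 9.00 FPKM with DMSO and 9.22 FPKM with BB608, with an interval from -1.70 to 1.77. The lower gene sum came from the second coding sequence, at 5.34 FPKM with DMSO and 1.85 FPKM with BB608, with a p of 0.338 in the authors' deposited table. LOXL2 shares its gene identifier with coding sequences of another gene name, 6 in number, so the division of reads at this locus is uncertain.

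All 9 basement membrane members were expressed, and all 9 gene sums were higher in BB608, with log2 folds from 0.06 to 1.63 and a median of 0.23. HSPG2 passed the limit for an expressed gene through BB608 alone. None of the 8 with a tested coding sequence was called by Cuffdiff, and 2 of them, LAMA5 and AGRN, had an unadjusted p under 0.05. Of all tested genes 9.49% had such a coding sequence. By the most abundant coding sequence 7 of the 9 were higher, with LAMB1 at -0.10 and HSPG2 at -0.15 log2. The count is a description.

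LAMA5, LAMB1 and LAMC1 encode the alpha, beta and gamma chains of laminin-511, a major laminin under epithelia. LAMA5 had gene sums of 13.0 FPKM with DMSO and 17.1 FPKM with BB608, a log2 fold of 0.40. Its most abundant coding sequence went from 6.87 FPKM with DMSO to 11.7 FPKM with BB608, a log2 fold of 0.76 (implied SE 0.21), with p = 0.0008 and q = 0.167 in the authors' deposited table. This was the lowest p of any member without a call. Its other 3 tested coding sequences had log2 folds of 0.23, -0.90 and -0.35, with implied SEs of 1.32 to 1.65, so only the most abundant was measured closely. The gene lies at a locus given as 60877148 to 60942368 on chromosome 20 of hg19, distinct from that of SNAI1.

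LAMB1 was the most abundant of the 3 chains, with gene sums of 25.1 FPKM with DMSO and 26.3 FPKM with BB608. LAMC1 was at 8.79 FPKM with DMSO and 9.46 FPKM with BB608, with an interval from -0.34 to 0.56 log2. The gamma chain of laminin-511 thus had the lowest level of the 3 messengers in both groups.

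AGRN encodes agrin, a heparan sulfate proteoglycan that binds laminin and integrins. Its gene sum was 7.02 FPKM with DMSO and 9.50 FPKM with BB608, a log2 fold of 0.44. The more abundant of its 2 coding sequences went from 5.21 to 8.25 FPKM (log2 fold 0.66, implied SE 0.25), with p = 0.0073 and q = 0.777 in the authors' deposited table. The other was at 1.81 FPKM with DMSO and 1.25 FPKM with BB608. HSPG2, the gene of perlecan, another heparan sulfate proteoglycan, had gene sums of 0.986 FPKM with DMSO and 1.12 FPKM with BB608 and no tested coding sequence.

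COL4A1 and COL4A2 encode the chains of the most common type IV collagen, the network former of basement membranes. COL4A1 had gene sums of 3.63 FPKM with DMSO and 3.93 FPKM with BB608, with an interval from -0.21 to 0.59 log2 for its tested coding sequence. COL4A2 had gene sums of 1.99 FPKM with DMSO and 3.19 FPKM with BB608, a log2 fold of 0.68. Its most abundant coding sequence had a log2 fold of 0.54, with an interval from -0.48 to 1.57. The level of COL4A1 was 1.82 times that of COL4A2 in DMSO and 1.23 times in BB608, and both genes carry the same locus in the table, 110801317 to 111165379 on chromosome 13 of hg19.

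COL7A1 encodes the collagen of the fibrils that anchor the epidermal basement membrane, and had gene sums of 9.10 FPKM with DMSO and 10.7 FPKM with BB608. The interval of its most abundant coding sequence ran from -0.23 to 0.44 log2. COL18A1, whose product carries endostatin at its end, had the largest fold of any expressed member. It went from 1.17 FPKM with DMSO to 3.64 FPKM with BB608, a log2 fold of 1.63, with an implied SE of 1.30 and with p = 0.242 and q = 0.997 in the authors' deposited table. Its interval, -0.91 to 4.18, shows how little this fold says at such a level.

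Promoter sequences from RefSeq, build GRCh38.p14, were found for 27 of the 35 members. The stretch between the transcription starts of COL4A1 and COL4A2 is shown because these neighbours read away from it in opposite directions and both gene sums were higher in BB608. The 250 bases before the start of LAMA5 are shown because its coding sequence had the lowest p among uncalled members. Capitals mark an E-box of the kind that SNAIL, SLUG and ZEB proteins bind (CAGGTG), a GC box (GGGCGG) and a CCAAT box (CCAAT), each searched on both strands.
COL4A1 to COL4A2, chr13:110307158-110307283, plus strand: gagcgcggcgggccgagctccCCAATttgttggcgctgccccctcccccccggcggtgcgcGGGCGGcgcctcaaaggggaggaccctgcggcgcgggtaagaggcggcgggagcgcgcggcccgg
LAMA5, chr20:62367313-62367562, minus strand: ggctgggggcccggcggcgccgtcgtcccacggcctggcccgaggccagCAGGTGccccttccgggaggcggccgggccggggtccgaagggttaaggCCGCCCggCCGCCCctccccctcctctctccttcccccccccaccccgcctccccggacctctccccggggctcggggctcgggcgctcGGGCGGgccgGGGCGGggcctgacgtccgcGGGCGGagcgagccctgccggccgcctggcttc

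The COL4A1 to COL4A2 stretch is 126 bases long, has a GC content of 80.2%, and holds 1 GC box, 1 CCAAT box and no E-box. In windows of that length just before a start, 34.6% of all 35116 promoters held a GC box, 21.1% a CCAAT box and 8.74% an E-box. The LAMA5 stretch has a GC content of 82.8% and holds 1 E-box and 5 GC boxes. Over 250 bases, 17.5% of all promoters held an E-box and 42.6% a GC box. An E-box stood in a promoter of 4 of the 27 matched members, namely ITGB6, LAMA5, LOX and ZEB1, and a GC box in a promoter of 22. Some members have several promoters in the table, 40 in all, of which 6 held an E-box and 28 a GC box, the counts to set beside the shares of all promoters. A match is a description of letters, not a bound site.

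All 6 integrin members were expressed, and they held most of the messenger of the whole set. ITGA3 and ITGB1 together made up 58.7% of the summed FPKM of the 35 genes in DMSO and 60.4% in BB608. By gene sum 5 of the 6 were lower in BB608, with ITGA3 the exception, and the median log2 fold was -0.14. By the most abundant coding sequence 5 of the 6 were lower too, but the exception was then ITGB1, at 0.0031 log2, and ITGA3 was at -0.26. None was called by Cuffdiff, and ITGA3 had 1 coding sequence at an unadjusted p under 0.05.

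ITGB1 encodes the beta 1 subunit, shared by many receptors for collagen, laminin and fibronectin. Its gene sum was 205 FPKM with DMSO and 195 FPKM with BB608, above 96.2% of expressed genes. The most abundant of its 9 tested coding sequences was at 147.5 FPKM with DMSO and 147.8 FPKM with BB608. Its log2 fold of 0.0031 had an implied SE of 0.10, the smallest among the members, and an interval from -0.19 to 0.19. The second coding sequence was at 43.4 FPKM with DMSO and 37.0 FPKM with BB608, and gives most of the difference in the gene sum.

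ITGA3 encodes the alpha 3 subunit, which pairs with beta 1 as a laminin receptor of epithelia. Its gene sum was 161 FPKM with DMSO and 197 FPKM with BB608, a log2 fold of 0.29. The 2 most abundant of its coding sequences pointed opposite ways. The first went from 94.3 FPKM with DMSO to 78.8 FPKM with BB608, and the second from 53.1 to 88.4 FPKM, with p of 0.669 and 0.640 in the authors' deposited table. Their implied SEs of 0.62 and 1.25 log2 are wide for such abundant sequences. Another, from 8.18 to 17.5 FPKM, had a log2 fold of 1.09 (implied SE 0.41), with p = 0.0165 and q = 0.997 in the authors' deposited table. Of its 6 tested coding sequences 5 were higher in BB608.

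The other alpha subunits were less abundant. ITGAV, whose product pairs with several beta subunits to bind RGD motifs, had gene sums of 16.4 FPKM with DMSO and 14.6 FPKM with BB608. Its most abundant coding sequence had an interval from -0.66 to 0.09 log2. ITGA2, the gene of the alpha subunit of a collagen receptor, had gene sums of 15.2 FPKM with DMSO and 13.7 FPKM with BB608, with an interval from -0.88 to 0.14. ITGA5, the gene of the alpha subunit of the fibronectin receptor, had gene sums of 7.55 FPKM with DMSO and 5.41 FPKM with BB608, a log2 fold of -0.48. Its most abundant coding sequence had a log2 fold of -0.19, with an interval from -1.07 to 0.70. Another went from 1.79 FPKM with DMSO to 0.507 FPKM with BB608, with a Cuffdiff p of 0.138. FN1, the gene of its ligand, was also lower in BB608 by gene sum, without a call.

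ITGB6 encodes the beta subunit of an epithelial receptor that frees TGF-beta from its latent form. It had gene sums of 5.05 FPKM with DMSO and 4.59 FPKM with BB608. Summed over ITGA2, ITGA3, ITGA5 and ITGAV, the 4 alpha genes of the set gave 200.5 FPKM with DMSO and 231 FPKM with BB608, beside 205 and 195 FPKM for ITGB1. Most of this alpha total was ITGA3 in both groups.

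**Figure D3:**
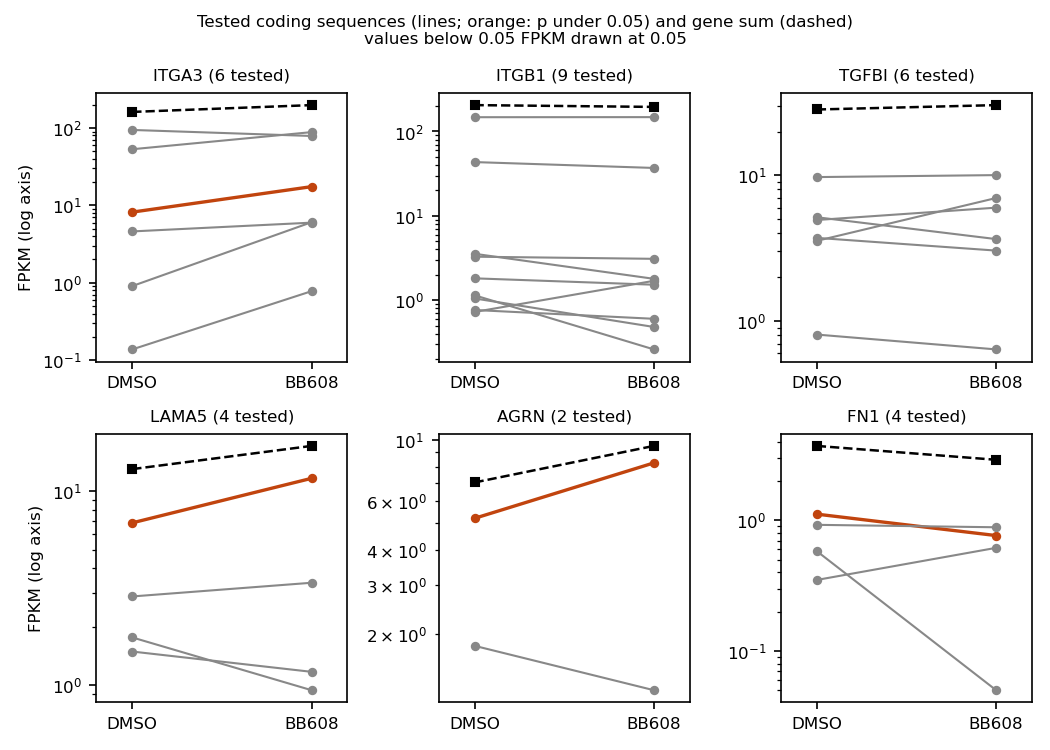
FPKM on a log axis in DMSO and BB608 for each tested coding sequence of 6 members (solid lines, orange where the authors' p was under 0.05) and for their gene sums (dashed). In ITGA3, TGFBI, LAMA5, AGRN and FN1 coding sequences of the same gene point in opposite directions, and in ITGB1 the most abundant is level while most minor ones are lower in BB608.

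Opposite directions within a gene were common in this set and in the whole table. Of 16 members with several tested coding sequences, 13 had some that were higher and some that were lower in BB608, against 79.6% of 7878 such genes in all. Over all 72 tested coding sequences 36 were lower and 36 higher. TGFBI shows the spread, with 6 tested coding sequences between 0.807 and 9.73 FPKM in DMSO. The nearest to a call among them went from 3.55 to 6.99 FPKM (log2 fold 0.98, implied SE 0.53), with a p of 0.0672 in the authors' deposited table. The implied SE over the members' tested coding sequences ran from 0.10 to 6.72 log2, with a median of 0.65, and could not be derived for 3 with a value near 0 in a group. Reads that fit several coding sequences of a gene are shared out by Cufflinks, and the part of this step in these directions was not tested.

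Precision sets what the missing calls can say. For 13 of the 24 tested members the interval of the most abundant coding sequence lay within 1 log2 of no change on both sides, and for 6 of them within 0.5 log2. For 19 of the 24 the interval held 0, the exceptions being SNAI1, SNAI2, FN1, LAMA5 and AGRN. A missed q therefore does not show that the remaining genes stayed level.

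Other genes of the matrix and adhesion system were taken from lists by function. Of 23 other collagen genes 5 were expressed, led by COL17A1, a hemidesmosome collagen, at 97.7 FPKM with DMSO and 95.8 FPKM with BB608. COL4A5, another type IV chain gene, was at 6.81 FPKM with DMSO and 4.03 FPKM with BB608, lower where COL4A1 and COL4A2 were higher. COL16A1 was at 3.80 and 4.66 FPKM and COL27A1 at 1.65 and 2.66 FPKM in DMSO and BB608. None of the 7 collagen genes of this list with a tested coding sequence was called by Cuffdiff, and none had an unadjusted p under 0.05.

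Other laminin and basement membrane genes numbered 13, of which 8 were expressed, and 6 of these were lower in BB608, with a median log2 fold of -0.11. LAMB3, the gene of an epithelial laminin beta chain, was at 65.5 FPKM with DMSO and 61.8 FPKM with BB608. EFEMP1, a fibulin gene, was at 35.4 and 37.7 FPKM and DAG1, the dystroglycan gene, at 34.5 and 31.6 FPKM in DMSO and BB608. No gene of this list was called by Cuffdiff, and 1 of 8 tested, LAMA3, had an unadjusted p under 0.05, against 9.49% of all tested genes. Of these 8 expressed genes 2 were higher in BB608, beside 9 of 9 for the members, and the difference between the lists was not tested. The make-up of the lists differs, since the members include COL4A1, COL4A2, COL7A1 and COL18A1 and this list holds no collagen gene. NID1 here, at 0.963 FPKM with DMSO and 1.04 FPKM with BB608, passed the limit for an expressed gene through BB608 alone. The same holds for HSPG2 among the members.

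Of 15 other integrin genes 7 were expressed, 3 lower and 4 higher in BB608. Among the higher ones ITGA7 passed the limit through BB608 alone, at 0.416 FPKM with DMSO and 1.29 FPKM with BB608. ITGB4, the laminin-binding beta subunit of hemidesmosomes, was at 103.8 FPKM with DMSO and 124.6 FPKM with BB608, and its lowest p was 0.00125, with q = 0.235, in the authors' deposited table. Its partner ITGA6 was at 48.5 and 47.9 FPKM in DMSO and BB608. ITGB5 was at 12.1 and 9.93 FPKM and ITGB2 at 5.50 and 4.54 FPKM. No gene of this list was called by Cuffdiff, and 1 of 7 tested had an unadjusted p under 0.05, against 9.49% of all tested genes.

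Enzymes and chaperones of collagen synthesis varied widely in level, with 12 of 17 expressed and a median log2 fold of 0.0019. P4HB, a subunit of prolyl hydroxylase, was at 951 FPKM with DMSO and 1042 FPKM with BB608. PPIB was at 435 FPKM with DMSO and 431 FPKM with BB608. The next highest was the collagen chaperone gene SERPINH1, at 47.8 and 51.8 FPKM, so P4HB and PPIB held most of the list's summed level. No member of this list was called by Cuffdiff, and none of 13 tested had an unadjusted p under 0.05. Of 20 focal adhesion genes 19 were expressed, 6 lower and 13 higher in BB608. FLNA, the actin crosslinker filamin A, was at 306 FPKM with DMSO and 391 FPKM with BB608, ACTN1 at 164 and 160.2 FPKM, and PTK2, the focal adhesion kinase gene, at 119 and 123 FPKM. None was called by Cuffdiff, and 4 of 19 tested had a coding sequence at an unadjusted p under 0.05, against 9.49% of all tested genes. Counted by coding sequence it was 5 of 101, against 3.31% of all tested coding sequences.

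Epithelial identity genes, the counterpart of the mesenchymal ones, were expressed in 14 of 16 cases, with a median log2 fold of 0.09. Of the 14, 5 were lower and 9 higher in BB608, beside 42.5% lower among all expressed genes. CDH1 was at 20.6 FPKM with DMSO and 22.1 FPKM with BB608, a log2 fold of 0.10 for the gene of the classical SNAIL target. CLDN7 was at 166 and 183 FPKM, CDH3 at 127 and 141 FPKM, the desmosome gene DSP at 91.5 and 95.0 FPKM, and EPCAM at 69.8 and 73.7 FPKM in DMSO and BB608. None of 15 tested was called by Cuffdiff, and 2 had an unadjusted p under 0.05, against 9.49% of all tested genes. In the list of TGF-beta ligands, receptors and SMADs 9 of 14 were expressed, with SMAD2 at 53.1 and 48.5 FPKM, SMAD3 at 42.9 and 45.4 FPKM, and TGFB1 at 34.8 and 35.9 FPKM. None of its 8 tested genes was called by Cuffdiff, and 1, TGFBR1, had an unadjusted p under 0.05, against the same 9.49%.

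**Figure D4:**
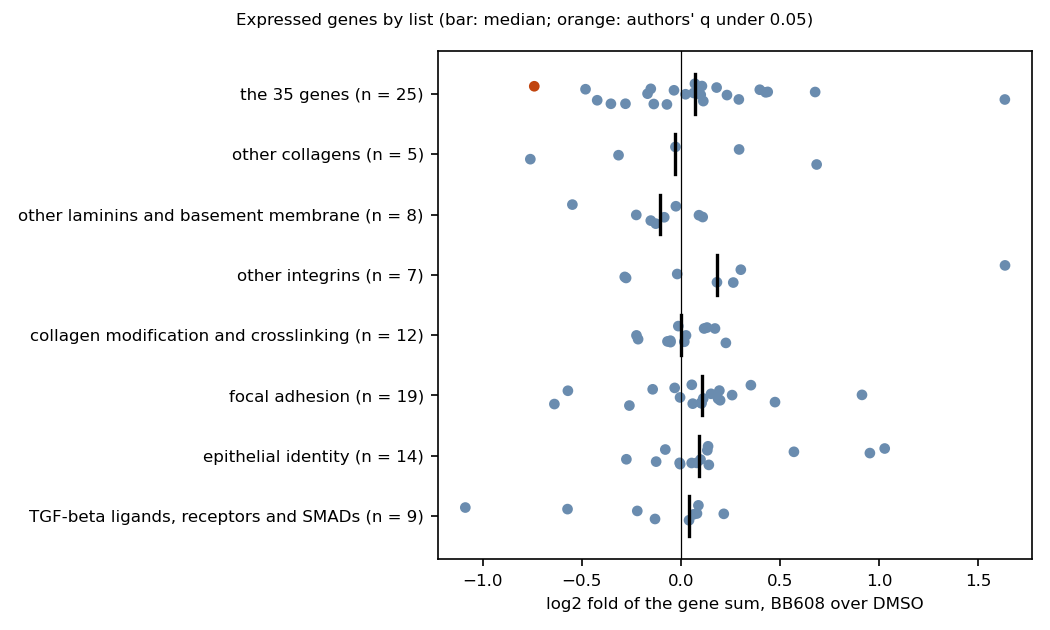
The log2 fold of the gene sum, BB608 over DMSO, for each expressed gene of the 35 and of 7 lists of related genes, with a bar at each list's median. The medians lie between -0.11 and 0.18, and SNAI1, in orange, is the only call in any of the lists.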

How the data were processed

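FaDu RNA was extracted with Trizol and made into stranded total RNA libraries without ribosomal RNA, per the labels' protocols. Reads were processed on hg19 with TopHat2 2.0.11, Cufflinks 2.2.1 and Cuffdiff, per the submitters' processing notes. Which gene annotation was used is not given in the sources here. The authors deposited 1 FPKM per group and coding sequence, pooled over each group's 3 libraries. Cuffdiff's p-value and q-value and its test statistic, a score, were deposited too. Depth is unknown. Cells of the deposited fold column were damaged by a spreadsheet, so folds were recomputed from FPKM. They matched intact tested cells above 0.001 FPKM to within 4.72e-05. A spreadsheet also turned 26 gene names into dates, none of a member.

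Gene sums, log2 folds without a pseudocount and counts were computed with Python 3.11.15, pandas 2.3.3 and scipy 1.17.1. For the implied SE the fold was divided by the product of the statistic and 1.73, the median ratio of the normal quantile of p to the statistic over 33027 tested rows (quartiles 1.64 and 1.78). Intervals are 1.96 implied SEs to each side, hold no spread beyond that in the authors' model, and were derived for coding sequences, not gene sums. The implied SE and the calls by q were also computed on folds simulated from the implied SEs themselves. Recovery of the SE was thus set by construction, and gene sums and the limit for an expressed gene were not covered. The planned model on values per library was not run, since values are pooled. The rule for naming took all members and, of other lists, called genes and the 4 most abundant. Genes beyond it, such as LAMA3, CDH1, CLDN4, TJP1 and TGFBR1, were chosen after their values were seen. Members, lists and tests were chosen with earlier results of these data known. The values of 1 listed gene are not reported here.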

Additional observations from a re-analysis of the deposited data

How the results depend on the processing

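No paired analysis was possible because libraries were pooled within each group, so no replicate could be left out either. At a q under 0.1 no further member was called, and SNAI1, the 1 called member, could not drop out at this looser limit. SNAI1 stayed called, at a q of 0.0234, when q was recomputed after dropping coding sequences whose mean was under 1 FPKM. With those under 5 FPKM dropped, the count was 0, since SNAI1 lies below that mean; LAMA5 then had a recomputed q of 0.0973. The median log2 fold of expressed members, 0.07 by gene sum, was -0.035 by the most abundant coding sequence; the cause was not tested. Expressed members numbered 28 at a floor of 0.5 FPKM and 18 at 5 FPKM. Lower ones ranged from 40.0% (10 of 25, gene sums) to 52.0% (13 of 25, most abundant coding sequence), with 9 of 18 at the floor of 5 FPKM. Scaling by the median log2 ratio shifted folds by 0.03 and put 44.0% of members below 0, against 50.0% of all expressed genes. Chosen after seeing the data were settings for the role groups, which left 7 to 9 basement membrane genes higher (8 of 8 over tested rows) and 5 of 6 integrins lower in each, though not the same 5: by the most abundant coding sequence ITGB1 turned higher and ITGA3 lower. Of 120 values of single members under other settings, 117 stayed within 1 implied SE, and HSPG2, with 4 more, has no implied SE. The scaling shift is smaller than the smallest implied SE, 0.10, so that setting could move no member further. For members with a wide implied SE, such as ITGA3 at 0.62, the limit was loose. The count of 117 therefore says little about stability. Of all 124, 11 changed sign, over 8 genes none of which was called.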

Other observations

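Some values outside the naming rule were picked after they were seen. CDH5, the gene of the cadherin of endothelial junctions, was at 3.82 FPKM with DMSO and 4.09 FPKM with BB608, and CD14, a monocyte receptor gene, at 2.23 and 2.24 FPKM. In the same list KDR and CD3E were listed at 0 in both groups, and PTPRC was at 0.0065 FPKM or less.

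ITGA7, an alpha subunit gene known from muscle, was at 0.416 FPKM with DMSO and 1.29 FPKM with BB608, a log2 fold of 1.63 with a p of 0.27 in the authors' deposited table. Of the focal adhesion genes, PXN, the paxillin gene, had the largest log2 fold, from 7.89 FPKM with DMSO to 14.8 FPKM with BB608, and its lowest p was 0.257 in the authors' deposited table. ESRP2 and GRHL1, an epithelial splicing factor and an epithelial transcription factor gene, were at 2.12 and 1.59 FPKM in DMSO and at 4.32 and 3.07 FPKM in BB608, with lowest p of 0.0555 and 0.13 in the authors' deposited table. TGFBR1, a TGF-beta receptor gene, was at 8.85 FPKM with DMSO and 5.96 FPKM with BB608, and its lowest p was 0.037 in the authors' deposited table. None of these had a call by Cuffdiff's q.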
